A study of Mus musculus with 2 samples.

Results

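The Tmem176 and Ms4a genes described here encode small membrane proteins that cross the membrane several times. The 6 members, Tmem176a, Tmem176b, Ms4a6b, Ms4a6c, Ms4a6d and Ms4a7, were chosen by name and are 6 of 32285 genes in the feature table. All 6 had UMIs, which are distinct molecular tags counted once per molecule. The RNA of single brain microglia, from mice with 1 copy of the Cx3cr1CreERT2(Litt) allele, was read with a droplet kit that captures 3′ ends. This allele puts tamoxifen-inducible Cre under the control of the fractalkine receptor gene. The mice were 12 weeks old and were given the oil vehicle or tamoxifen (TAM), over 4 weeks in the case of TAM. Both treatments carried the allele, and animals without Cre were not analysed here. The sort took CD11b+ CD45+ cells without surface Ly6G or CD206. Antibody hashtags, 5 for oil (Oil1 to Oil5) and 5 for TAM (TAM1 to TAM5), marked the cells of 1 pooled gene expression library. Whether a hashtag stands for 1 mouse is not stated, so p-values reflect only the variation among hashtags, possibly technical.

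The MS4A proteins form a family whose founding member is CD20 of B cells, and the genes of most other members lie with it in 1 cluster. Several Ms4a genes are expressed in macrophages, and Ms4a7 is known as a marker of macrophages at the borders of the brain and of macrophages that enter the brain from blood, rather than of resident microglia. TMEM176A and TMEM176B are related to the MS4A proteins, are abundant in myeloid cells, and act on intracellular cation flow, and TMEM176B is known as a brake on the inflammasome. In people, the MS4A cluster has been linked to the level of soluble TREM2, a microglial receptor.

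In the GENCODE annotation of the GRCm38 build, Tmem176a lay at chr6:48840919-48847071 on the plus strand and Tmem176b at chr6:48833818-48841496 on the minus strand. The genes were head to head and overlapped by 578 bases, of which 81 were exonic in both. The 4 Ms4a members lay within 283811 bases of chromosome 19. Ms4a7 was at chr19:11321039-11336146 on the minus strand, Ms4a6c at chr19:11469366-11482192 and Ms4a6b at chr19:11516512-11531256 on the plus strand, and Ms4a6d at chr19:11586604-11604849 on the minus strand. The transcripts of Ms4a6b and Ms4a6c shared 281 stretches of 31 bases, which is 13.9% of those of Ms4a6c and 6.19% of those of Ms4a6b. Ms4a6d shared 83 such stretches with Ms4a6b. How reads common to such copies were counted is not given in the sources used here, so the split between these 3 genes carries that uncertainty.

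Upstream sequences are shown for Ms4a6b, Ms4a6c and Ms4a7 because the first 2 share sequence while Ms4a6c and Ms4a7 stood out in the state 6 cells described below. They are RefSeq windows of GRCm38.p6 of up to 250 bases before a RefSeq transcript start, 5′ to 3′ on the strand of the gene, with annotated exonic bases left out. Capitals mark GGAAGT, the core recognized by ETS factors such as PU.1, on either strand (ACTTCC is its reverse complement).
Ms4a6b (chr19:11518309-11518452, plus strand): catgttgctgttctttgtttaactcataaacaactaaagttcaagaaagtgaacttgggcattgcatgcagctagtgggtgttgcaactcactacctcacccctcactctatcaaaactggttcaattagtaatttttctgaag
Ms4a6c (chr19:11469118-11469365, plus strand): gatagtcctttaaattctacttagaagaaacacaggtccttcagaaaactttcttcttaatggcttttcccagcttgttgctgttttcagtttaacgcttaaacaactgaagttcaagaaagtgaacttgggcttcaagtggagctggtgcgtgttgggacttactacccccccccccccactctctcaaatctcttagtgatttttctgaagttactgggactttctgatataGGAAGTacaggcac
Ms4a7 (chr19:11336147-11336396, minus strand): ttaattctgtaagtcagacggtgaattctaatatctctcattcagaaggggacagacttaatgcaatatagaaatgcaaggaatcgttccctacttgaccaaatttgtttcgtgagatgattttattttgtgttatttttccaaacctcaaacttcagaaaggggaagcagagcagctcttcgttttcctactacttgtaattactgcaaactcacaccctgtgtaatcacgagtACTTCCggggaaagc
The RefSeq start used for Ms4a6b lies inside the GENCODE gene given above, which begins farther upstream. The whole windows of Ms4a6b and Ms4a6c, exonic bases included, aligned over 182 columns with 83.5% identity. The aligned part of Ms4a6b runs from 248 to 71 bases before its start, and its printed sequence ends at 107. In its whole window of 250 bases, exonic bases included, Ms4a6b held GGAAGT 2 times. Ms4a6c held it 1 time, 16 bases before the start, and Ms4a7 1 time on the opposite strand, 15 bases before the start. Another RefSeq window of Ms4a7, of 250 bases at chr19:11334696-11334945, held it 0 times and is not printed. The same letters were found in 19.7% of all 32851 windows of that length, so a match is common. The windows of Tmem176a and Tmem176b lie on exons for 242 or more of their 250 bases and are not printed.

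The analysed cells were 7903 barcodes with 1 hashtag, of 9975 barcodes in all. They formed 8 clusters, called states here, and 6 states with 7491 cells together expressed the microglial markers. A hashtag gave 577 to 896 microglia-like cells with 2939982 to 4787780 UMIs. State 7 held 360 cells of low depth, with a median of 1517 UMIs against 4919 over all analysed cells. State 6 held 52 cells (0.658%) and was left unnamed. The members were not used to place cells in states. Xist or Y-linked RNA separated the hashtags into 4 male ones, Oil1, Oil2, TAM1 and TAM2, and 6 female ones, 3 in each treatment. This is a reading of the RNA and not of the labels, and the male hashtags are also the first by number in each treatment.

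UMIs of both Tmem176 genes were found in most microglia-like cells. Tmem176b gave 14429 UMIs there, on average 1.93 per cell, with at least 1 UMI in 77.0% of cells. Tmem176a gave 8231 UMIs, in 58.5% of cells. The library held no named cell type that should lack these genes, so the share that free RNA gives was not estimated, here or in state 6. Ms4a6b followed with 4610 UMIs (43.1% of cells), Ms4a6d with 3542 (35.1%) and Ms4a6c with 1765 (19.04%). These are molecule counts from 3′ ends, so they do not depend on gene length in the way that fragment counts do, but primer and mapping differences between genes remain and no test was made between genes. Ms4a7 had no UMI among the 38817759 of microglia-like cells, which allows a level of up to 0.0773 CPM (the UMI count scaled to a fixed total, the unit of all levels here) and a share of cells with a UMI of up to 0.0400%. The share of cells that express the gene is not limited by this. Counting intervals and such limits cover counting error only.

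The 15 other Ms4a genes were almost silent. The most abundant, named after its values were seen, was Ms4a4c with 91 UMIs in all analysed cells, 84 of them in microglia-like cells. Ms4a1, which encodes CD20, had 3 UMIs, and Ms4a4a, a macrophage gene, had 6, of which 5 were in state 6.

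Each member's level differed by state, most of all for Ms4a6c and Ms4a7. The states were built from the same cells, so these levels are a description without a test. Tmem176b was at 457 CPM in state 0, which is led by Nrxn3 and Lmo7, and at 397 in state 2, led by the immediate early genes Fos and Egr1. It was at 390 in state 4, led by the interferon-induced genes Cxcl10 and Ifit3 with Spp1 and Lpl, and at 296 in the 11 cells of state 5, led by Il12b. It was at 301 in state 3, led by Nhs and Rapgef4, at 242 in the 132 dividing cells of state 1, led by Mki67, and at 223 in the low-depth state 7. Tmem176a followed a like order, from 258 CPM in state 0 to 166 in state 3 and 127 in state 7. Over the 10 hashtags Tmem176b was at 461 ± 92.7 (SD) in state 0, 411 ± 129 in state 4 and 315 ± 56.3 in state 3. States 0 and 4 lay within this spread of each other.

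**Figure D1:**
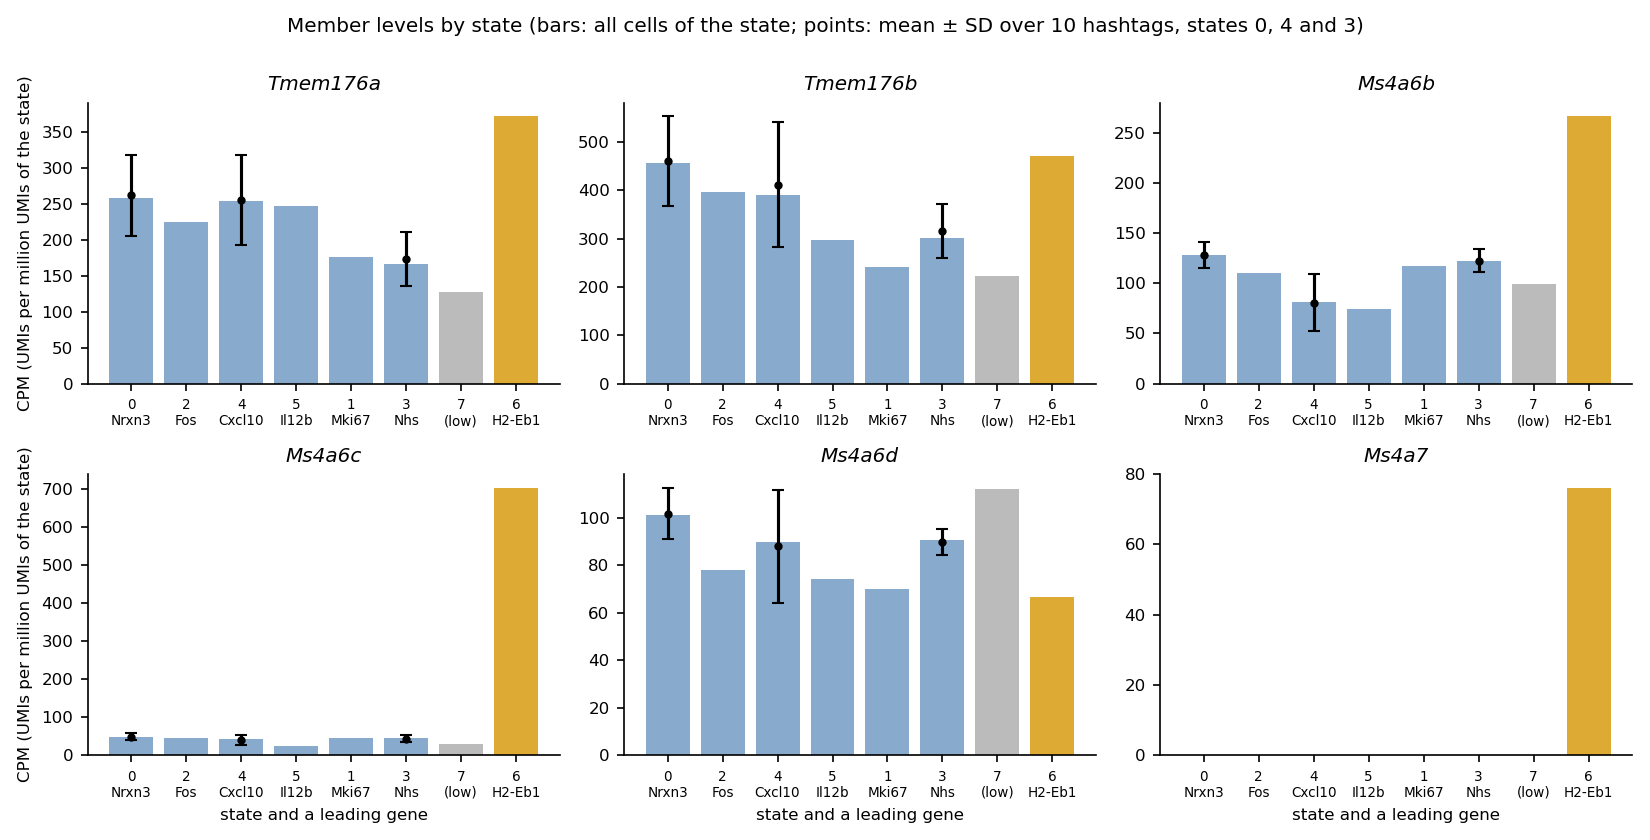
Level of each member in each state, in CPM (per total UMIs of that state); bars are all cells of the state and points with lines are the mean and SD over 10 hashtags where every hashtag had at least 20 cells. Ms4a6c reaches 705 and Ms4a7 76.2 in state 6 (last bar), while Tmem176a and Tmem176b are higher in state 0 than in state 3.

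The step between the largest states was repeated in each hashtag for the Tmem176 genes. State 0 (2766 cells) was above state 3 (2844 cells) in 10 of 10 hashtags, by a mean log2 ratio of 0.59 ± 0.15 (SD, n = 10) for Tmem176a and 0.54 ± 0.09 for Tmem176b, which is 1.51-fold and 1.45-fold. The lowest and highest hashtags were 0.38 and 0.96 for Tmem176a and 0.40 and 0.69 for Tmem176b. For the Ms4a genes the ratio was smaller and mixed in sign. It was 0.07 ± 0.18 for Ms4a6b (higher in 6 of 10 hashtags), 0.16 ± 0.33 for Ms4a6c (7 of 10) and 0.18 ± 0.20 for Ms4a6d (9 of 10). State 0 was the shallower state, with a median of 4312 UMIs per cell against 5496, and its part in the ratios was not tested. With each cell thinned to 2000 UMIs, Tmem176b was found in 56.1% of cells of state 0 and 42.3% of state 3, against 77.9% and 74.1% without thinning. Thinning left out 39 cells of state 0 and 4 of state 3.

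**Figure D2:**
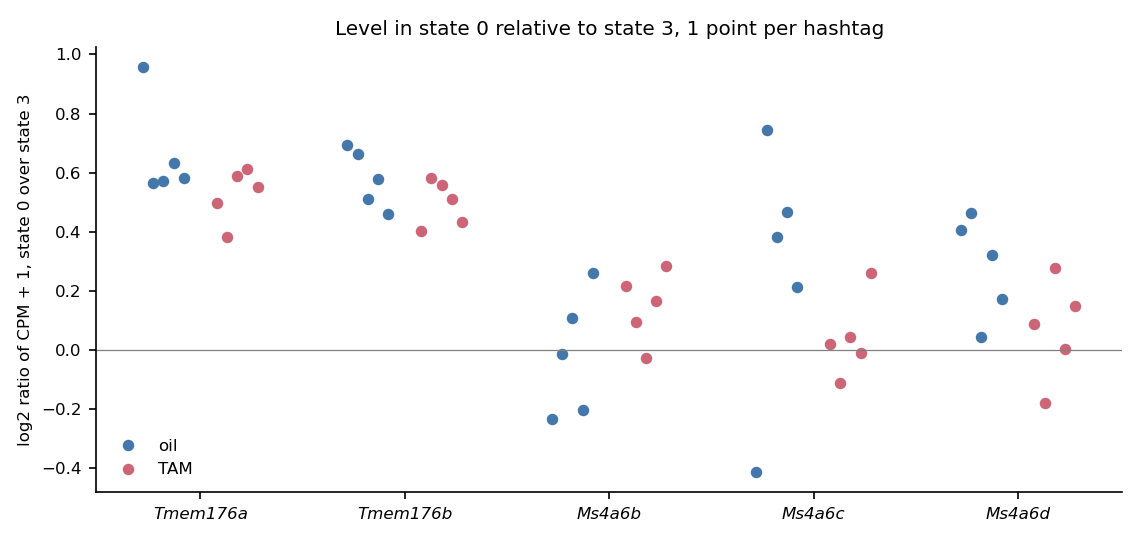
Log2 ratio of CPM + 1 in state 0 over state 3 for each hashtag (points), oil and TAM apart. All 20 points of Tmem176a and Tmem176b are above 0, from 0.38 to 0.96, and the Ms4a genes scatter around or just above 0.

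A Tmem176b UMI was found more often in cells with a Tmem176a UMI than in cells without one. Among 7437 microglia-like cells thinned to 2000 UMIs, Tmem176b was found in 59.3% of the former and in 44.2% of the latter, and 19.2% of cells had UMIs of both. Within state 0 these shares were 65.7% and 50.4%, and within state 3 they were 51.1% and 39.1%. For Tmem176a with Ms4a6b the shares were 21.0% and 20.8%, so no such step was seen there. Ms4a6c was found in 10.5% of cells with Ms4a6b and in 8.29% of cells without it, a pair that shares sequence. Cells of 1 hashtag are not replicates and no test was made. Over microglia-like cells, the 10 hashtags gave 1.59 to 1.89 Tmem176b UMIs per Tmem176a UMI.

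State 6 stood apart in the Ms4a genes. Ms4a6c was at 705 CPM there against 45.5 in microglia-like cells, a 15.5-fold difference, and was found in 41 of 52 cells (78.8%, exact binomial 95% interval 65.3% to 88.9%) against 19.04% of microglia-like cells. All 16 Ms4a7 UMIs of the analysed cells were in state 6, in 10 of its cells (19.2%, 9.63% to 32.5%). This puts its level at 986 times the limit for microglia-like cells, taken as 3 counts over the group. Counting error on the 16 UMIs is not part of that figure. Ms4a6b was 2.25-fold higher in state 6, at 267 CPM against 119. Tmem176a was at 371 CPM against 212 and Tmem176b at 471 against 372. Ms4a6d ran the other way, at 66.7 CPM against 91.2, from 14 UMIs. A UMI of Tmem176a was found in 42.3% of state 6 cells and 58.5% of microglia-like cells. One of Tmem176b was found in 46.2% and 77.0%. With cells thinned to equal depth as above, the shares were 38.8% and 32.4% for Tmem176a and 44.9% and 49.1% for Tmem176b. At equal depth the share was thus higher in state 6 for Tmem176a and lower for Tmem176b, while the CPM was higher for both. State 6 then held 49 cells and no test was made, so no order is read for this pair. The median depth was 3684.5 UMIs per cell in state 6 and 5010 in microglia-like cells. These 52 cells gave 7.66% of all Ms4a6c UMIs and 0.675% of all Tmem176b UMIs.

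The cells of state 6 were led by H2-Eb1, H2-Aa, Itgal, H2-Ab1 and Gpr141, 3 of them MHC class II genes that present antigen. Of 10 monocyte markers 6 were in at least 25% of the cells, Lyz2 in 52 cells and Cybb in 50, while Ly6c2 and Vcan were at 0. Of 10 markers of CNS-associated macrophages 3 reached that share, with Mrc1 in 16 cells and Pf4 in 13, and Lyve1, Cbr2 and Folr2 were at 0. Mrc1 encodes CD206, which the sort excluded as a surface protein. Of 14 microglial markers 9 reached it, Csf1r in 50 cells and Tmem119 in 12. The summed level of the monocyte list was 10834 CPM in state 6 and 178 in microglia-like cells, and that of the microglial list 6267 and 34447. Lyz2 alone gave 7629 and 166 CPM of the monocyte sums, and Cybb 1638 and 3.04.

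The 10 cells with Ms4a7 differed in their other genes from the 42 without it. Mrc1 was found in 7 of the 10 and 9 of the 42, Pf4 in 6 and 7, and Stab1 in 5 and 5. Itgal was found in 1 of the 10 and 27 of the 42, Gpr141 in 1 and 28, and Plac8 in 1 and 24. Ms4a6c was found in all 10 and in 31 of the 42, at 1377 and 571 CPM. Tmem176b was at 1148 CPM in the 10 and 337 in the 42, and Tmem176a at 746 and 297. Median depths were 3579.5 and 3748.5 UMIs. The cells came from 6 hashtags, and the highest Ms4a7 count in a cell was 4. These 2 sets were split on Ms4a7 itself and are described without a test.

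The share of state 6 cells was higher with TAM. The oil hashtags held 3, 3, 0, 3 and 5 such cells (0.425%, 0.47%, 0%, 0.378% and 0.597% of their cells) and the TAM hashtags 9, 5, 4, 13 and 7 (1.04%, 0.808%, 0.428%, 1.61% and 0.899%). The lowest TAM value, that of TAM3, lay inside the oil range and the others above it. The means were 0.373% ± 0.224 and 0.955% ± 0.428 (SD, n = 5 each), a difference of 0.582 percentage points with an exact two-sided permutation p of 0.0238 over 252 regroupings. When a cell needed at least 80% of its hashtag UMIs from 1 hashtag, the difference was −11.9 percentage points (exact permutation p = 0.532). Only 1 (Oil5) and 4 (Oil4) microglia-like cells then remained in those hashtags. State 6 gave 4 Ms4a7 UMIs in oil hashtags (Oil4 1, Oil5 3) and 12 in TAM hashtags (TAM1 3, TAM2 3, TAM3 5, TAM4 1). Ms4a7 was found in 3 of 14 state 6 cells in oil and 7 of 38 in TAM, too few to be tested.

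The main comparison asked whether the members differed in microglia-like cells between TAM and oil. None of the 5 members tested passed (edgeR quasi-likelihood test, adjusted p below 0.05), while 508 of 11170 genes did (4.55%), 187 higher and 321 lower in TAM (2.87%). Scaled by library size alone, 356 were higher and 250 lower. At an unadjusted p below 0.05 there was 1 member, Tmem176b, against 19.3% of all genes, and DESeq2 called no member. Tmem176b was at 464, 455, 412, 353 and 409 CPM in Oil1 to Oil5 and at 427, 456, 277, 254 and 280 in TAM1 to TAM5. TAM3, TAM4 and TAM5 lay below every oil hashtag, whereas TAM1 and TAM2 lay inside the oil range. The means were 419 ± 44.3 and 339 ± 94.8 (SD, n = 5 each), the log2 fold was −0.31 ± 0.14 (SE), and its 95% interval ran from −0.62 to 0.01 (unadjusted p = 0.0377, adjusted p = 0.223, edgeR). The interval uses fewer degrees of freedom than the test and is wider for that reason.

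Tmem176a was at 269, 245, 223, 187 and 233 CPM in Oil1 to Oil5 and at 247, 286, 162, 148 and 163 in TAM1 to TAM5. The same 3 TAM hashtags were below all oil ones, and TAM2 was the highest of all. How many of all genes have TAM3, TAM4 and TAM5 below every oil hashtag was not counted. The log2 fold of Tmem176a was −0.21 ± 0.15, with an interval from −0.55 to 0.14 (adjusted p = 0.492, edgeR). With 1 hashtag left out it ran from −0.12 (without TAM4) to −0.36 (without TAM2), with −0.14 without TAM3 or TAM5, and did not pass.

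The Ms4a6 genes differed less between treatments than between hashtags. Ms4a6b was at 108, 116, 115, 128 and 115 CPM in Oil1 to Oil5 and at 115, 112, 123, 129 and 128 in TAM1 to TAM5, a log2 fold of 0.06 with an interval from −0.07 to 0.19 (adjusted p = 0.621, edgeR). Ms4a6d was at 83.3, 91.1, 85.6, 94.3 and 99.2 CPM in oil and at 89.0, 88.2, 93.2, 97.0 and 93.5 in TAM, a log2 fold of 0.02 from −0.11 to 0.16 (adjusted p = 0.882, edgeR). Ms4a6c was at 42.5, 36.4, 48.0, 50.8 and 47.5 CPM in oil and at 36.8, 40.5, 47.1, 61.6 and 41.4 in TAM. Its log2 fold was 0.01 from −0.27 to 0.29 (adjusted p = 0.978, edgeR). TAM4 was the highest hashtag for Ms4a6c, and the treatments overlapped for all 5 genes, as for all but 5.27% of the genes tested. The median log2 fold of the 5 was 0.01 and that of all genes tested −0.0004.

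**Figure D3:**
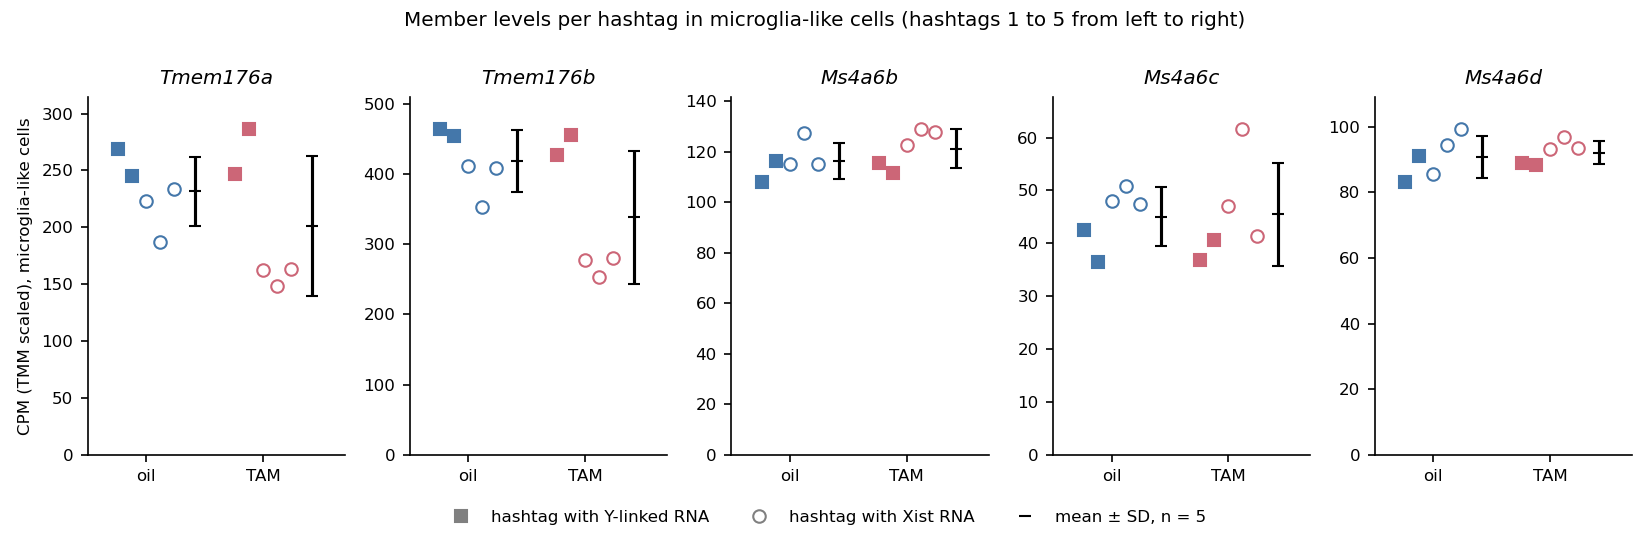
Level of each member per hashtag in microglia-like cells, in TMM-scaled CPM, with the mean and SD per treatment; squares are hashtags with Y-linked RNA and circles those with Xist RNA. For Tmem176a and Tmem176b the 3 TAM circles lie below all other points, at 148 to 163 and 254 to 280.

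Over all analysed cells, state 6 included, 519 of 11238 genes passed (4.62%), 193 higher and 326 lower in TAM (354 and 254 by library size alone), and again none of the 5 members tested. With sex as a term Tmem176b passed (−0.33, adjusted p = 0.0051, edgeR), as did 886 of 11238 genes. In female hashtags alone both Tmem176b (−0.52, adjusted p = 5.5e-05) and Tmem176a (−0.45, 7.7e-04) passed (edgeR), among 652 of 11356 genes. Without a sex term the log2 fold of Ms4a6c over all analysed cells was 0.14 ± 0.12 (adjusted p = 0.591, edgeR), against 0.01 in microglia-like cells. Those of Tmem176a (−0.21) and Tmem176b (−0.30) were nearly the same as in microglia-like cells.

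Within states no member passed either. In state 3, 29 of 9753 genes passed (0.297%), in state 0 86 of 9170 (0.938%) and in state 4 7 of 5461 (0.128%), with no member among them. Tmem176b was at −0.17 ± 0.11 (log2, SE) in state 3, −0.25 ± 0.11 in state 0 and −0.37 ± 0.17 in state 4, with adjusted p of 0.686, 0.363 and 0.749 (edgeR). Tmem176a was at −0.02 ± 0.14 in state 3, −0.16 ± 0.12 in state 0 and −0.08 ± 0.17 in state 4, against −0.21 over all microglia-like cells. Ms4a6d was at −0.15 ± 0.09 in state 0 and 0.05 ± 0.09 in state 3. The log2 ratio of state 0 over state 3 in TAM minus that in oil was −0.08 for Tmem176b, −0.14 for Tmem176a, 0.16 for Ms4a6b, −0.24 for Ms4a6c and −0.21 for Ms4a6d, and none passed (exact two-sided permutation, adjusted p = 0.228 for each but Ms4a6c, 0.286).

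**Figure D4:**
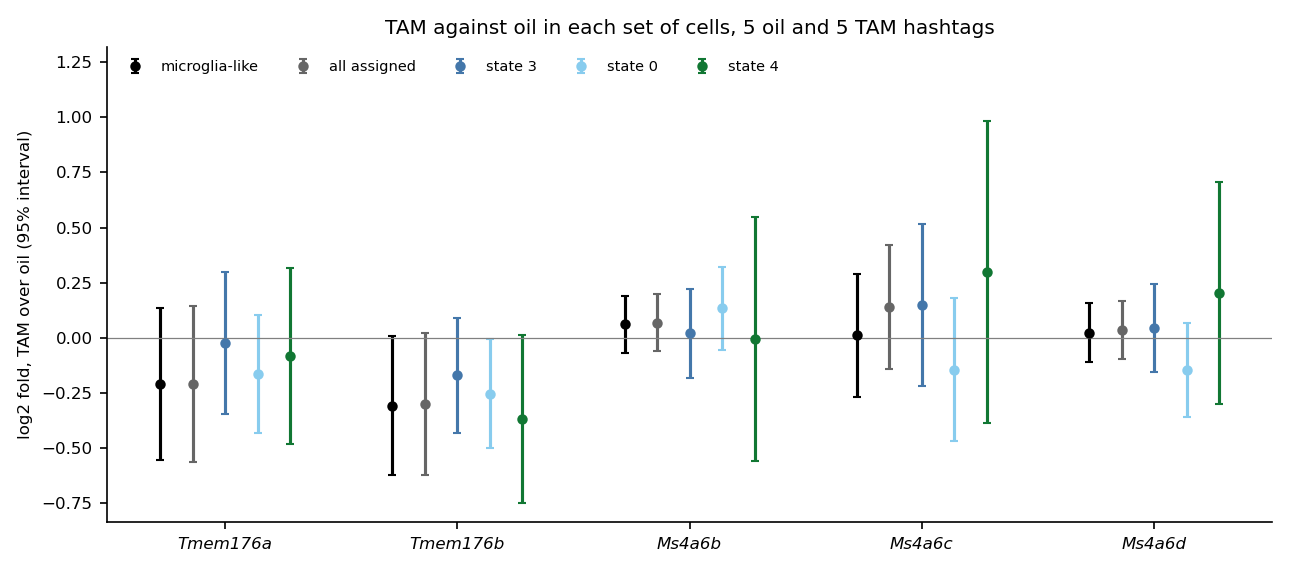
Log2 fold of TAM over oil with its 95% interval for the 5 members tested, in microglia-like cells, all analysed cells and states 3, 0 and 4. Tmem176b is below 0 in all 5 sets of cells, from −0.17 to −0.37, and none of the 25 values passes the adjusted threshold.

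The Tmem176 values were then read with the sex of the hashtags. With sex as a covariate Tmem176b passed, at −0.34 ± 0.07 (adjusted p = 0.0032, edgeR), and Tmem176a did not, at −0.24 ± 0.08 (adjusted p = 0.0653). That fit called 882 of 11170 genes, against 508 without the covariate. In a fit of 4 groups, sex by treatment, which was added after the results above were seen, the female TAM effect passed for 596 of 11170 genes (5.34%, and 3.43% lower in TAM). Tmem176b fell from 391 ± 33.2 to 270 ± 14.6 CPM in female hashtags (SD, n = 3 each), a log2 fold of −0.53 ± 0.06 (adjusted p = 1.8e-05, edgeR), and Tmem176a fell from 215 ± 24.5 to 158 ± 8.31 CPM, −0.44 ± 0.08 (adjusted p = 0.0012, edgeR). In the 2 male hashtags per treatment, Tmem176b was at 459 ± 6.42 CPM in oil and 441 ± 20.2 in TAM and Tmem176a at 257 ± 16.7 and 266 ± 27.8. Their log2 folds were −0.06 ± 0.07 and 0.04 ± 0.09 (adjusted p = 0.847 and 0.922, edgeR). In male hashtags 141 genes passed (1.26%). The female minus the male TAM effect was −0.47 ± 0.09 for Tmem176b and −0.49 ± 0.12 for Tmem176a and did not pass (adjusted p = 0.0945 and 0.449, edgeR), so a sex difference of the effect is not shown. That test called 0 of 11170 genes with edgeR, and 632 (5.66%) had an unadjusted p below 0.05, with 6.77e-05 and 6.25e-04 for this pair.

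Between the sexes within TAM, 136 of 11170 genes passed (1.22%). Tmem176b was higher in male than in female TAM hashtags by 0.71 ± 0.07 and Tmem176a by 0.75 ± 0.09 (adjusted p = 5.4e-06 and 6.4e-05, edgeR). Within oil, where 58 genes passed (0.519%), the differences were 0.23 ± 0.07 and 0.26 ± 0.08 and did not pass (adjusted p = 0.164 and 0.258, edgeR). The Ms4a6 genes passed in neither treatment. In female hashtags the TAM effect on Tmem176b also passed within state 3, at −0.42 ± 0.07, and within state 0, at −0.43 ± 0.07 (adjusted p = 3.7e-04 and 3.0e-04, edgeR), and was −0.51 ± 0.17 in state 4 (adjusted p = 0.494). In these states 1.26%, 1.21% and 0.146% of genes passed, and Tmem176a did not pass in any of the 3. Within state 3 the female minus the male effect passed for 4 genes (0.041%), and Tmem176b, at −0.53 ± 0.13, was not among them (adjusted p = 0.152, edgeR).

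Other measures moved along with these hashtags. The mean log2 CPM of 23 immediate early genes ran from 6.73 in Oil1 to 4.93 in Oil5 and was 4.82, 4.92, 4.31, 3.94 and 3.90 in TAM1 to TAM5. State 3, where the Tmem176 genes were lower, held 10.8% to 35.6% of the cells in oil hashtags and 41.5% to 50.5% in TAM hashtags. State 2, with Tmem176b at 397 CPM, held 5.85% to 57.4% in oil and 0.371% to 3.57% in TAM. State 1, with Tmem176b at 242 CPM, held 0.110% to 0.882% in oil, 1.04% and 1.29% in the male TAM hashtags and 4.17%, 4.82% and 2.82% in the female ones. Adjusted for the immediate early level, the log2 fold of Tmem176b was 0.18 and that of Tmem176a 0.31, and with the order of the hashtags from 1 to 10 they were 0.36 and 0.49. These values are the opposite of the main sign, and none passed. With sex added to the immediate early level, a fit chosen after seeing the data, they were −0.38 and −0.28 and did not pass. Sex, order and immediate early level are tied within each treatment here, and the parts they play cannot be told apart. Marker lists were summed within microglia-like cells. The summed level of the 10 CNS-associated macrophage markers was 247 to 290 CPM in oil and 264 to 300 in TAM, most of it Stab1, and that of the 10 monocyte markers 153 to 225 and 144 to 179, most of it Lyz2. In the female hashtags alone the monocyte list was at 225, 178 and 195 CPM in oil and 153, 144 and 156 in TAM, the dendritic list at 191, 184 and 184 and 202, 203 and 201, and the microglial list at 35854, 36127 and 36626 and 33838, 33366 and 33217. These 3 lists did not overlap between treatments there. Nor did the astrocyte list, at 276, 284 and 262 CPM in oil and 305, 320 and 289 in TAM. The neuron list was at 1.33, 1.29 and 1.72 CPM in oil and 3.13, 2.31 and 2.14 in TAM. The T or NK list was at 0.221, 0 and 0 and at 0.418, 0.257 and 0.268, again without overlap. The CNS-associated macrophage, neutrophil, B, oligodendrocyte and vascular lists overlapped. The share of all genes without overlap among the female hashtags was not computed, so whether such separation is unusual cannot be told. The part of any list in the Tmem176 result was not tested.

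Related genes were read from lists. Of 11 Trem2 signalling genes tested in microglia-like cells, 1 fell and none rose, against 4.55% of all genes called and 2.87% called lower. It was Trem2 itself, the lipid-sensing receptor of microglia, at 1809 ± 83.4 CPM in oil and 1573 ± 96.8 in TAM (log2 fold −0.20 ± 0.04, adjusted p = 0.0166, edgeR), without overlap of the treatments, as for 5.27% of all genes. None of 10 inflammasome genes passed. Gsdmd, the pore-forming gasdermin, was at −0.20 (adjusted p = 0.0975), Il18 at −0.11 and Pycard, the adaptor, at −0.08. None of 7 MHC class II genes passed, with Cd74 at −0.37, H2-Ab1 at 0.24 and H2-DMb2 at 0.27. Of 6 brain-engrafting macrophage genes none passed, with Ifitm3 at 0.64 (adjusted p = 0.0568), Lyz2 at −0.34 and Ccr2 at −0.53. The medians of the 4 lists were 0.05, −0.05, −0.03 and 0.09, against −0.0004 for all genes. Over all analysed cells, Ifitm3, an interferon-induced membrane protein, was the 1 of 8 genes of the last list that rose, by 0.999 ± 0.22 (adjusted p = 0.0161, edgeR), against 1.72% of all genes called higher.

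Genes most like each member across the 8 states were ranked by Pearson's r of log2(CPM + 1). The states share 1 library and differ in depth, and r over 8 states is a description. Tmem176a was most like H2-DMa (0.96), Batf3 (0.96) and Ucp2 (0.96), and Tmem176b most like Pold4 (0.94), Syngr2 (0.93) and Orai3 (0.92). Tmem176a and Tmem176b had r = 0.86 with each other. This put Tmem176b at rank 141 among the genes most like Tmem176a, and Tmem176a at rank 15 for Tmem176b. Ms4a6b was most like Rassf5 (0.95), Stk17b (0.95) and Cd47 (0.93), and Ms4a6d most like Arsk (0.95), Hk2 (0.90) and Lgals8 (0.90). Ms4a6c was nearest to Nadk (0.99), Mbp (0.99) and Add3 (0.98), and Ms4a7 to Klf13 (0.99), Mbp (0.99) and Glud1 (0.98), and these r rest on state 6, where both members were far above their other levels. Ms4a6b was also highest in state 6, at 267 CPM against at most 128 elsewhere. In CPM so were Tmem176a (371 against at most 258) and, by little, Tmem176b (471 against at most 457). As above, no order between state 6 and the other states is read for this pair. How far the r of Ms4a6b, Tmem176a and Tmem176b depend on state 6 was not tested.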

How the data were processed

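The authors deposited raw UMI counts. Cell Ranger 7.0.0 is named in the file headers, and mm10 in the submitters' processing notes. The annotation they used is not given in the sources used here. Hashtag names defined the treatments. HTODemux of Seurat 5.3.0 (positive quantile 0.99) gave 8055 singlets, 1737 barcodes with several hashtags (17.4%) and 183 with none, and only singlets were kept. Doublets that share a hashtag, by proportion about 193, were not removed. Cells with under 500 genes, under 1000 UMIs or over 10% mitochondrial UMIs were dropped. Clusters were made in scanpy 1.11.5 from 2000 variable genes, 30 components and 15 neighbours at Leiden resolution 0.5, without the Tmem176, Ms4a and sex-linked genes. A cluster took the name of its best marker list (by the median, over markers, of the percent of cells with a UMI) where that median reached 50% and 3 or more markers reached 25%.

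Counts were summed per hashtag, and edgeR 4.0.16 gave quasi-likelihood F tests (TMM, filterByExpr, no covariate, Benjamini-Hochberg at 0.05). Ms4a7 did not pass the filter on low counts in these fits. The standard error is the absolute log2 fold over the square root of F. Intervals use a t quantile on the residual degrees of freedom of the hashtags, without the moderation across genes that the edgeR p-values use. CPM per hashtag are TMM scaled, and CPM by state are per total UMIs. The script was tested on simulated data. Shares and state ratios were compared by exact permutation. Local alignment used Biopython 1.88, and motifs were searched on both strands.

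The members, lists and tests were chosen with earlier results of these data known. Named genes are the members, the 3 genes most like each (at least 500 UMIs, no Gm or Rik clones), the 5 leading genes of state 6, other Ms4a genes with at least 100 UMIs (none), and up to 3 per list by test or smallest p. Alternatives were other scaling, DESeq2 1.42.0, no filter, a replicate block, covariates, each sex alone, stricter hashtag and depth rules, other clusters and leaving out each hashtag.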

Additional observations from a re-analysis of the deposited data

Results flagged for a closer look

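Of 34 groups of 5 hashtags examined for a value far from the rest, 2 held one, and chance flags about 1 in 20 groups. The log2 ratio of Tmem176a in state 0 over state 3 was 0.96 in Oil1 and 0.57 to 0.63 in the other oil hashtags. The number of Tmem176b UMIs per Tmem176a UMI was 1.59 in TAM2 and 1.71 to 1.73 in the other TAM hashtags.

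Barcodes without a hashtag entered no comparison. Their levels of Ms4a6b (128.0 CPM, 56 UMIs), Ms4a6c (52.6 CPM, 23 UMIs) and Ms4a6d (100.6 CPM, 44 UMIs) were just above the highest oil hashtag (125.5, 50.4 and 97.8 CPM), while Tmem176a (84.6 CPM) and Tmem176b (233 CPM) were below it (264 and 454 CPM). These 183 barcodes had a median of 1455 UMIs.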

How the results depend on the processing

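In microglia-like cells 25 alternatives were run (23 planned, 2 added after seeing the data), over all cells 21 and within each state 12. The number of genes called in microglia-like cells (508) was 832 without the filter, 873 with a replicate block, 882 with a sex term, 122 for male hashtags, 69 with the immediate early level, 38 with hashtag order, 8 and 2 with sex added to either, and 75 under the 80% hashtag rule. Over all cells (519) it was 851, 904, 886, 108, 63, 38 and 26 for the 7 of these run there. Leaving out 1 hashtag gave 247 to 653 and 259 to 683. It gave 0 to 102 in state 3, 51 to 141 in state 0 and 0 to 13 in state 4.

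Replicate numbers do not pair the hashtags by the labels. The correlation of deviations of same-numbered hashtags was 0.333, 0.167, 0.055, 0.131 and 0.118, and 3 of 5 numbers matched best with their own. With the replicate block 169, 179 and 15 genes were called in states 3, 0 and 4, and Tmem176b passed in microglia-like cells (−0.34, adjusted p = 0.0029, edgeR), all cells (0.00502) and state 0 (−0.30, 0.00438). Ms4a6b in state 4 was 0.049 with the block and 0.019 by library size alone.

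Tmem176b also passed without the filter (adjusted p = 0.0342), with sex as a covariate (0.0032) and in female hashtags alone (3.76e-05), where Tmem176a passed too (7.18e-04). In female hashtags alone 643 of 11274 genes passed. In state 0 Tmem176b passed without TAM2 (−0.38, 0.0431). DESeq2 gave 0.507 for Tmem176b. The female minus male effect of Tmem176b was −0.54 to −0.42 with 1 hashtag left out and passed without Oil4 (0.0367, edgeR).

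These log2 folds changed sign, and the cause was not tested. With male hashtags alone Tmem176a was 0.047 in microglia-like cells and 0.055 over all cells, and Ms4a6c −0.039 in microglia-like cells. With the immediate early level Tmem176a, Tmem176b, Ms4a6b, Ms4a6c and Ms4a6d were 0.31, 0.18, −0.099, −0.33 and −0.16, and over all cells 0.32, 0.20, −0.084, −0.18 and −0.13. With hashtag order they were 0.49, 0.36, −0.14, −0.43 and −0.18, and over all cells 0.50, 0.37, −0.12, −0.27 and −0.17. With sex and the immediate early level Ms4a6b and Ms4a6d were −0.019 and −0.24, and with sex and order −0.026 and −0.25. Under the 80% rule Ms4a6b was −0.18, over all cells −0.11, and the share of state 6 cells differed by −11.9 points.

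With 1 hashtag left out, Tmem176a ran from −0.36 to −0.12, Tmem176b from −0.43 to −0.22, Ms4a6c from −0.12 to 0.084 and Ms4a6d from −0.0049 to 0.058 in microglia-like cells. In state 3 Tmem176a ran from −0.18 to 0.064, Ms4a6b from −0.046 to 0.078 and Ms4a6c from −0.013 to 0.23. In state 4 Tmem176a ran from −0.25 to 0.029 and Ms4a6b from −0.14 to 0.34. The female minus male effect ran from −0.083 to 0.19 for Ms4a6c and from −0.058 to 0.064 for Ms4a6d. The difference in the share of state 6 cells was 0.419 to 0.714 points and passed each time. Ms4a7, with 16 UMIs, was too sparse to test.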
